A study of Mus musculus with 6 samples.

Results

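The genes described here are 10 members of the matrix metalloproteinase system, chosen by name: the secreted proteases Mmp8, Mmp9, Mmp12, Mmp13 and Mmp19, the membrane-anchored protease Mmp14, the inhibitors Timp1, Timp2 and Timp3, and the membrane-anchored protease Adam8. All 10 were present among the 20649 genes of the count matrix, and the question asked of each was which myeloid cells of the tumor hold its transcripts. The cells were CD45-positive cells enriched from subcutaneous tumors of CT26, a mouse colon carcinoma line, in BALB/c mice that had received 500000 tumor cells. The labels list 3 tumors injected with exoASO-Scramble, exosomes that carry a control antisense oligonucleotide, and 3 injected with exoASO-STAT6, exosomes that carry an antisense oligonucleotide against the transcription factor STAT6. Injections were intratumoral on alternate days, 3 in all, and tumors were taken 24 h after the last; the mice were female and 6 to 8 weeks old when obtained. The cells of all tumors stand in a single matrix, whose barcodes end in 1 of 6 numbers that match no sample label, so each number was taken as a library of unknown treatment and the effect of exoASO-STAT6 on these genes was not analysed here. The spread between libraries therefore includes any effect of treatment.

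Matrix metalloproteinases are zinc-dependent enzymes that are made as inactive precursors and, once activated, cut collagens, elastin and other proteins of the extracellular matrix. The tissue inhibitors of metalloproteinases, encoded by the Timp genes, bind the active site of these enzymes and block it. In tumors, infiltrating macrophages, monocytes and neutrophils are well-known sources of both, and transcript counts show neither activation nor release of the proteins.

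The 3 collagenase and elastase genes Mmp13, Mmp12 and Mmp8 lie on the same strand of chromosome 9, at chr9:7272514-7283331, chr9:7344381-7369499 and chr9:7558456-7568485 (GENCODE M21, GRCm38), and the 3′ end of Mmp12 overlaps Mmp1b on the opposite strand at chr9:7368239-7388047. The other members lie apart, Mmp9 at chr2:164940780-164955850, Mmp14 at chr14:54431612-54445364, Mmp19 at chr10:128790910-128800824, Timp1 at chrX:20870166-20874735, Timp2 at chr11:118301069-118355740, Timp3 at chr10:86300372-86349506 and Adam8 at chr7:139978932-139992562. Of the 10 members, 8 had a promoter entry in the RefSeq table (GRCm38.p6), with 2 entries for Mmp12, and the 250 bases before each annotated start were searched on both strands for TGANTCA (the AP-1 site), TTCNNNGAA (the STAT site), for the wider spaced STAT6 site, in which 4 bases of any kind lie between TTC and GAA, and for TATAAA. The windows of Mmp12 and Mmp13 are shown because these 2 genes had the most alike levels of any pair of members. They are written 5′ to 3′ on the plus strand of chromosome 9, with matches in capitals, for Mmp13 at chr9:7272264-7272513 and for Mmp12 at chr9:7344147-7344396 (start 1) and chr9:7347124-7347373 (start 2, inside the gene body).
Mmp13: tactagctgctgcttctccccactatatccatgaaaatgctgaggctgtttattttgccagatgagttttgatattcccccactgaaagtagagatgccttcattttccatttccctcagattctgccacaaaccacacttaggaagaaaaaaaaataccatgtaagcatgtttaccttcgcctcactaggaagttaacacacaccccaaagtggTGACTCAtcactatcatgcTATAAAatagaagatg
Mmp12 start 1: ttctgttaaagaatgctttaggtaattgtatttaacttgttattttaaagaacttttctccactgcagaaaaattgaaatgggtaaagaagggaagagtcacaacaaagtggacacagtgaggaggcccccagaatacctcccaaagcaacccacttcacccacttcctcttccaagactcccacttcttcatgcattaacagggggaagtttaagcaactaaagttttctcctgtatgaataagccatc
Mmp12 start 2: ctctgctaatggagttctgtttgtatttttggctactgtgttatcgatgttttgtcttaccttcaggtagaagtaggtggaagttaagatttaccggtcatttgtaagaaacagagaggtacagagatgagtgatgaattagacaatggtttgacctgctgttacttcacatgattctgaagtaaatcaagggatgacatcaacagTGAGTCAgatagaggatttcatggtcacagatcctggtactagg
The window of Mmp13 held TGACTCA at bases -35 to -29 and TATAAA at bases -16 to -11, counted back from the start, and the second window of Mmp12 held TGAGTCA at bases -44 to -38. The first window of Mmp12 held none of the letters searched, nor did the windows of the other 6 members with an entry, and no member window held either STAT pattern. Over the same windows of all 32851 promoters of the table, the AP-1 letters were found in 6.75%, TATAAA in 12.4%, TTCNNNGAA in 7.02% and the STAT6 letters in 5.85%. A match of letters is a description of the window and does not show that a factor binds there.

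The libraries held between 11492757 and 33902084 UMIs (unique molecular identifiers, 1 for each captured transcript) in 9235 barcodes, with median depths from 7270 UMIs in library 5 to 16125 in library 4, and 16 barcode sequences occurred in more than 1 library. Barcodes without a UMI of the lymphocyte genes Cd3e and Ncr1 were assigned by transcripts to 4 gates: 692 neutrophil barcodes (at least 5 UMIs of S100a9), 812 early monocyte barcodes (at least 3 of Vcan and Hp with 1 of Csf1r), 3484 macrophage barcodes (at least 3 of Csf1r and Adgre1) and 144 dendritic barcodes (at least 1 of Flt3). Together these were 5132 barcodes, or 55.6% of all. The counts at the thresholds show how soft they are: 542 barcodes without lymphocyte UMIs lay exactly at 3 UMIs of Csf1r and Adgre1 and 602 just under it, and 24 lay at 5 UMIs of S100a9 and 39 at 1 fewer. Markers that the gates did not use went with their names: G0s2 stood at 677 CPM (UMIs per 1000000 UMIs of a gate) in the neutrophil gate against 9.2 in macrophages, Thbs1 at 716 in early monocytes against 99.5, and Fscn1 at 559 in the dendritic gate against 12.9. The neutrophil gate was not free of other cells, since 571 of its 692 barcodes (82.5%) also held at least 3 UMIs of Csf1r and Adgre1, and Apoe, a macrophage gene, stood at 1639 CPM in it. Of the 692, 275 also met the early monocyte rule, and early monocyte markers summed to 2399 CPM (libraries 1351 to 3741) against 1428 in macrophages (874 to 2524), with 3 of 8 called higher. These markers include Vcan and Hp, the genes of the early monocyte rule. Barcodes that met this rule could stay in the neutrophil gate but not in the macrophage gate, so part of this difference is set by the gates. Levels in the other 121 barcodes, with 0 to 2 such UMIs, are given beside those of the whole gate, and 3 libraries (6, 7 and 8) had at least 20 of them. This is a cut on raw UMIs and not a set without macrophage transcripts: macrophage markers still summed to 2899 CPM in the 121 barcodes, against 4263 in the other 571 and 4961 in the macrophage gate, at median depths of 8029, 16798 and 12902 UMIs. These markers include Csf1r and Adgre1, by which the sets were cut, so part of this order is set by the cut. Early monocyte markers summed to 4184 CPM in the 121 barcodes and 2245 in the other 571, against 5556 in the early monocyte gate, and neutrophil markers to 10893 and 5543. The early monocyte gate overlapped macrophages almost as much, with 633 of 812 barcodes (78.0%) at 3 or more UMIs of Csf1r and Adgre1. As a reference for low levels, 603 lymphocyte barcodes with no Csf1r, Adgre1 or S100a9 UMI were used, at a median depth of 6447 UMIs against 12902 in macrophages. Because barcodes with those UMIs were left out, they may understate free myeloid RNA, and whether they make a member themselves was not tested. Basophil and mast cell markers summed to 98.3 CPM in them, with libraries from 13.8 to 586. Fibroblast markers summed to 19.0 CPM and markers of CT26 or epithelial cells to 1.2 CPM in the macrophage gate, with Krt8 at 0.

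Levels of a member are given as CPM over all libraries with an exact Poisson interval (95%, counting error only) and as the lowest, median and highest of the libraries with at least 20 barcodes. All 6 libraries qualified in 3 gates, and libraries 4, 5 and 8 in the dendritic gate. A difference between 2 sets of cells was called when the summed levels differed at least 2-fold and every such library, at least 3 of them, went the same way, among genes at 5 CPM or more over both sets. There is no p-value, because cells of a pool are not replicates. The share of all tested genes that met this rule is given as the background of a comparison.

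Mmp8 was highest in early monocytes and Mmp9 in the neutrophil gate when whole gates were summed, and both were above macrophages in the neutrophil gate. Mmp8, the collagenase stored by neutrophils, reached 61.5 CPM (57.0 to 66.3) in early monocytes, with libraries between 18.2 and 96.8 and a median of 64.5, and 132 CPM in the early monocyte barcodes that met no other gate. In the neutrophil gate it stood at 38.9 CPM (libraries 16.8 to 52.3), in macrophages at 10.8 CPM (2.07 to 18.7) and in dendritic cells at 3 UMIs, or 1.97 CPM, close to the 2.63 CPM of lymphocytes. Early monocytes exceeded the neutrophil gate in 5 of 6 libraries and the 2 ranges overlapped. Within the neutrophil gate, the 121 barcodes with 0 to 2 Csf1r and Adgre1 UMIs held 97.4 CPM of Mmp8 (78.9 to 119) and the other 571 held 33.9 (30.6 to 37.4). This difference was 2.88-fold and went the same way in all 3 libraries that could be compared, while Timp2 was lower in the first set, at 132 against 301 CPM, in the same 3 libraries. Of 8938 genes tested between these 2 sets, 1.45% were called higher in the first and 6.14% lower. Early monocyte markers were higher in the sum of the first set too, with 2 of 8 called, as were 2 of 7 neutrophil markers. Of 7 macrophage markers, a list that holds the Csf1r and Adgre1 used for the cut, 3 were called lower. The part of all these markers in the levels of the members was not tested. Mmp9, gelatinase B, was highest in the neutrophil gate, at 47.8 CPM (44.0 to 51.8), with libraries from 27.8 to 89.2 and a median of 38.7. It stood at 14.7 CPM in early monocytes, where libraries ran from 0.968 to 92.2, at 10.5 in dendritic cells, at 9.37 in macrophages (2.50 to 17.7) and at 1.69 in lymphocytes. The dendritic level rested on library 4, at 47.6 CPM where libraries 5 and 8 held 7.67 and 0, and the log2 difference from macrophages, 0.16 with all libraries, was -1.85 without library 4 and 0.88 without library 8. The lowest neutrophil library lay above the highest macrophage library, whereas early monocytes and macrophages could not be ordered, each being higher in 3 of 6 libraries. In the 121 neutrophil-gate barcodes with 0 to 2 Csf1r and Adgre1 UMIs Mmp9 stood at 79.3 CPM (libraries 154, 60.9 and 31.3). Mmp13, the main collagenase of mice against fibrillar collagen, gave no order of these gates that held across libraries. Its level was 212 CPM in the neutrophil gate (libraries 56.8 to 249.8), 182 in macrophages (154 to 278) and 125 in early monocytes (86.1 to 383), and the neutrophil gate exceeded macrophages in 3 of 6 libraries. The 121 neutrophil-gate barcodes held 350.3 CPM, with libraries of 235, 71.0 and 604, and barcodes that met the neutrophil rule alone held 414. In dendritic cells Mmp13 stood at 27.5 CPM, near the 22.7 CPM of lymphocytes.

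Mmp12, the macrophage elastase, had the most UMIs of the Mmp genes in every gate. It stood at 438 CPM in macrophages (432 to 444), with libraries from 297 to 632 and a median of 457. The neutrophil gate followed at 394 CPM (72.8 to 590.0), early monocytes at 222 (105 to 475) and dendritic cells at 159, where 1 library held 283 and the other two 7.94 and 11.5. Macrophages exceeded early monocytes in 5 of 6 libraries, 1.98-fold in the sums, which falls short of a call on both counts. The 121 neutrophil-gate barcodes with 0 to 2 Csf1r and Adgre1 UMIs held 771 CPM in the sum, above the macrophages, but 227, 416 and 651 in the 3 libraries that could be compared, and were higher than the rest of their gate in 1 of them. The transcripts were held by few cells. To compare cells at equal depth, 3000 UMIs were drawn at random from every barcode, and the 743 shallower barcodes of the series were set aside. A Mmp12 UMI was then found in 17.3% of macrophages (16.04 to 18.6, exact binomial interval), against 25.5% at full depth. The 10% of macrophage barcodes with the most Mmp12 held 92.8% of its UMIs. Lymphocyte barcodes had one in 4.76% (3.04 to 7.06) and stood at 64.1 CPM, the highest of the Mmp genes in these cells.

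Mmp14, the membrane-anchored enzyme that activates gelatinase A at the cell surface, was spread over more cells. Its level was 113 CPM in macrophages (libraries 78.0 to 126), 95.4 in the neutrophil gate (55.1 to 118), 88.2 in early monocytes (71.4 to 103), 17.7 in dendritic cells and 3.75 in lymphocytes. Macrophages were higher than the neutrophil gate in all 6 libraries, but by 1.18-fold, and the 121 neutrophil-gate barcodes with 0 to 2 Csf1r and Adgre1 UMIs held 57.2 CPM. At 3000 UMIs it was found in 25.9% of macrophages against 0.414% of lymphocytes (60.4% and 2.82% at full depth). The 10% of macrophages with the most Mmp14 held 52.9% of its UMIs, a lower share than that of Mmp12. Gelatinase A itself, Mmp2, named here after its values were seen, had 8 UMIs in the 3484 macrophages and 6 in the other 3 gates. Mmp19, a secreted protease of basement membrane proteins, was highest in early monocytes, at 83.9 CPM (78.5 to 89.4) with libraries from 58.6 to 143. In the neutrophil gate its libraries ran from 15.1 to 113 with a median of 29.6, and it stood at 40.0 CPM in macrophages (26.5 to 81.2), at 9.18 in dendritic cells and at 2.63 in lymphocytes. The 121 neutrophil-gate barcodes held 85.3 CPM (libraries 109, 112 and 68.9). Early monocytes exceeded macrophages in all 6 libraries, although the ranges of the 2 gates overlapped.

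Timp2 was the most abundant of the inhibitors. Its summed level was highest in macrophages, above the neutrophil gate in 4 of 6 libraries. It stood at 321 CPM in macrophages (316 to 325), with libraries from 184 to 470 and a median of 316, and at 288 in the neutrophil gate (209 to 467), 137 in early monocytes (76.5 to 230.2) and 51.8 in dendritic cells. Macrophages exceeded early monocytes in all 6 libraries, and 45.5% of macrophages had a Timp2 UMI at 3000 UMIs against 8.49% of lymphocytes (74.2% and 18.1% at full depth). Timp1, the inhibitor that pairs with gelatinase B, had its highest level in early monocytes, at 89.7 CPM (libraries 31.5 to 173), followed by the neutrophil gate at 66.8 (37.6 to 139), macrophages at 61.1 (35.6 to 150.0) and dendritic cells at 46.5, and all 4 ranges overlapped, while lymphocytes stood at 18.4 CPM. In 3 of these gates library 6 was the highest, at 139 to 173 CPM. The 121 neutrophil-gate barcodes with 0 to 2 Csf1r and Adgre1 UMIs held 116 CPM, above the sum of early monocytes, with libraries of 174, 30.4 and 125. Timp3, the inhibitor that binds to the matrix, had 81 UMIs in all 9235 barcodes. Its 0.675 CPM in macrophages lay below the 1.69 CPM of lymphocytes, so no gate could be said to make it at this depth. Dendritic cells had 0 UMIs of Timp3, where 3 UMIs would make 1.97 CPM. Adam8, a disintegrin-type metalloproteinase of myeloid cells, hardly distinguished 3 of the gates: 397 CPM in the neutrophil gate (266 to 527), 372 in early monocytes (255 to 526) and 336 in macrophages (213 to 542). The 121 neutrophil-gate barcodes held 479 CPM (libraries 532, 477 and 476). Dendritic cells stood at 124 CPM (86.3 to 164), below every library of the 3 gates, and lymphocytes at 73.7 CPM.

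**Figure D1:**
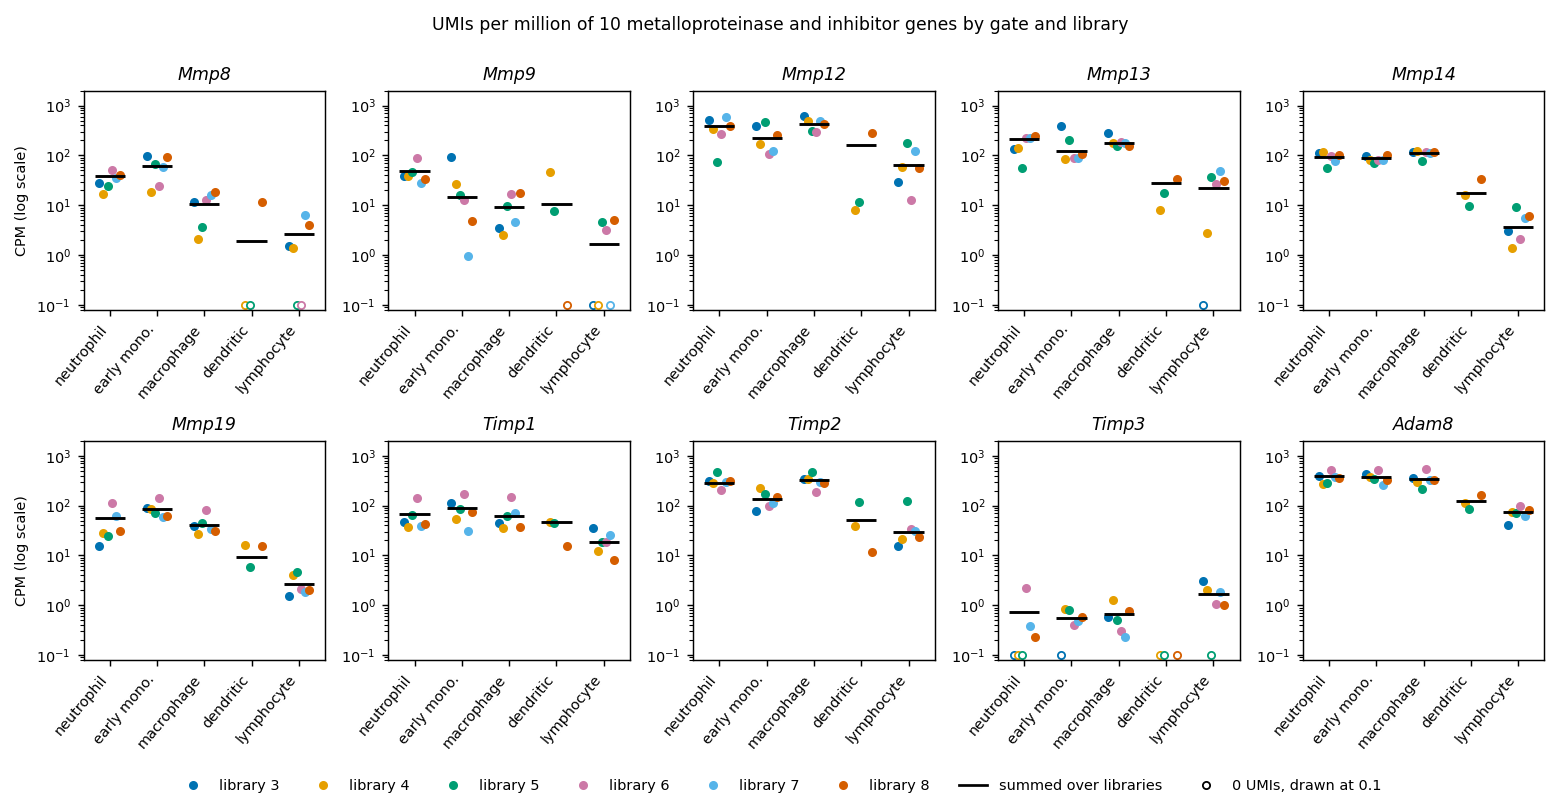
Level of each of the 10 genes in 4 myeloid gates and in lymphocyte barcodes without Csf1r, Adgre1 or S100a9 UMIs, in CPM on a log axis, with 1 point for each library that has at least 20 barcodes and a bar at the level summed over libraries. Mmp9 leads in the neutrophil gate at 47.8 CPM, Mmp8 and Mmp19 in early monocytes at 61.5 and 83.9 CPM, and Timp2 is lower in early monocytes than in macrophages. Timp3 sums to under 1 CPM in each myeloid gate, and its highest library, in the neutrophil gate, is at 2.23 CPM.

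Set against macrophages, the neutrophil gate had 2 members called higher, Mmp9 (5.10-fold, 4.51 to 5.76) and Mmp8 (3.62-fold, 3.19 to 4.09), and 0 called lower, where 1.11% of 9035 tested genes were called higher and 0.0332% lower. With early monocytes, Mmp8 (5.72-fold, 5.10 to 6.40) and Mmp19 (2.10-fold, 1.94 to 2.27) were called higher and Timp2 lower (0.427-fold, 0.405 to 0.450), against backgrounds of 1.38% and 2.47%. Neutrophil markers, Mmp8 and Mmp9 not counted, summed to 309 CPM in early monocytes (libraries 124 to 516) and 129 in macrophages (86.9 to 232), and 2 of 5 tested were called higher. Their part in the difference of Mmp8 was not tested, nor was that of the early monocyte markers in the neutrophil gate. The call of Mmp19 ended when library 4 or library 6 was left out, with log2 differences of 0.93 and 0.98, with overlapping barcodes kept in every gate they met (0.49) and with 1 or more UMIs of Vcan and Hp (0.91). The call of Timp2 ended with overlaps kept (-0.69), with 1 or more UMIs of Vcan and Hp (-0.75) and with a stricter neutrophil gate (-0.94), and with overlaps kept that of Mmp8 in the neutrophil gate ended too (0.64). For Mmp9 in the neutrophil gate, the log2 difference was 3.01 without library 8 against 2.35 with all. With dendritic cells, 7 of the 9 members tested were called lower, by 2.71-fold for Adam8 to 6.60-fold for Mmp13, and 0 higher, against 13.8% and 7.26% of 9074 genes. The 7 were Adam8, Mmp8, Mmp12, Mmp13, Mmp14, Mmp19 and Timp2, and Mmp9 and Timp1 were not called. Macrophage markers, Csf1r and Adgre1 among them, summed to 710 CPM in dendritic cells (libraries 619 to 1119) and 4961 in macrophages, with 7 of 7 called lower. Early monocyte markers summed to 1913 (1858 to 2408) and 1428 CPM, with 1 of 8 called higher and 2 lower. Their part in the differences of the members was not tested. The ratio for Mmp8, with 3 dendritic UMIs, was 0.183 (0.0376 to 0.537). This comparison rests on 3 libraries with 22 to 57 dendritic barcodes, and on a gate without the 117 Flt3 barcodes that also met the macrophage rule. With overlapping barcodes kept in every gate they met, 3 calls were left, Mmp12, Mmp13 and Mmp19, and Mmp8, Mmp14, Timp2 and Adam8 were no longer called, at log2 differences from -1.23 to -0.47. Adam8 was also not called against macrophages with at least 6 UMIs of Csf1r and Adgre1, at -0.88. Without library 3 the log2 difference of Mmp12 was -2.46 and that of Mmp13 was -3.42, against -1.47 and -2.72 with all libraries, and without library 5 that of Timp2 was -4.12 against -2.63.

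Macrophages were split by 4 genes, chosen with earlier results of these data known. Inhba had been named together with Mmp12 in an earlier grouping of these cells. A difference of Mmp12 by Inhba is therefore no independent finding. C1qa encodes a complement subunit made by mature resident-like macrophages, Ly6c2 marks recently arrived monocytes, Rsad2 is induced by interferon, and Inhba encodes the activin A subunit. Each library was cut at its own median of C1qa, which gave 1744 barcodes high and 1740 low, while for the other genes barcodes with at least 2 UMIs were set against barcodes with 0.

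The C1qa split separated Timp2 from most other members. C1qa-high macrophages had 3.02 CPM of Mmp9 against 18.4 in C1qa-low ones, 3.51 of Mmp8 against 21.1, 24.5 of Mmp19 against 62.0 and 41.3 of Timp1 against 89.4. These 4 members were called lower, in 6 of 6 libraries each, where 2.15% of 9036 genes were called lower and 1.11% higher. Markers of other cells were lower on the same side: early monocyte markers summed to 836 CPM (libraries 498 to 1354) against 2271 (1223 to 4177), with 7 of 8 called lower, neutrophil markers to 85.6 (66.4 to 156) against 192 (110 to 339), with 2 of 5 tested, and dendritic markers to 27.1 (14.1 to 42.7) against 117 (33.7 to 194), with 1 of 5. Their part in these differences was not tested. Without library 7, Timp1 was no longer called, with a log2 difference of -0.92. At 3000 UMIs in every barcode Mmp8 (-2.86) and Timp1 (-0.98) were not called, and with overlapping gates kept Mmp9 was not (-1.27). Without library 8 the log2 difference of Mmp9 was -1.77 against -2.61. Timp2 was higher in the C1qa-high side in all 6 libraries, at 396 CPM (libraries 248 to 600.2) against 213 (93.3 to 299.7), a 1.86-fold difference that is under the rule. Mmp14 stood at 116 against 108 CPM and went both ways among the libraries. Mmp12 was lower on the C1qa-high side in 5 libraries, at 272 against 675 CPM in the sums, and library 6 alone went the opposite way, at 399 against 153. Without library 6 it was called lower, with a log2 difference of -1.57, as was Mmp13 with -1.02. Median depth was 16274 UMIs on the C1qa-high side and 10231 on the low side, and at 3000 UMIs the shares with a UMI were in the same order, 58.8% against 32.2% for Timp2, 6.55% against 13.2% for Mmp19 and 14.6% against 20.05% for Mmp12, and at full depth 91.3% against 57.1%, 28.1% against 31.7% and 24.0% against 27.1%.

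With Ly6c2, 994 high barcodes were set against 2155 at 0. Mmp12 was called lower in the high side, at 169.5 CPM (libraries 59.8 to 255) against 573 (390.3 to 798), 2 ranges that did not overlap, and so was Timp2, at 170.2 CPM (141 to 227) against 393 (256 to 552), which did not overlap either. Timp2 was no longer called among macrophages with at least 6 UMIs of Csf1r and Adgre1, at a log2 difference of -0.98. The background was 1.59% lower and 1.36% higher of 9039 genes. Early monocyte markers, Ly6c2 among them, summed to 3032 CPM on the high side (libraries 1825 to 3603) and 794 at 0 (536 to 1377), with 7 of 8 called higher, neutrophil markers to 191 and 96.2 CPM with 0 of 5 called, and dendritic markers to 113 (29.7 to 244) and 42.1 CPM (19.9 to 72.4) with 1 of 5 called higher. Their part in the differences of Mmp12 and Timp2 was not tested. Timp1 had 95.3 CPM on the high side against 44.0 in the sums, but 2 of 6 libraries went the opposite way. In the Rsad2 split, 903 barcodes against 2161, 0 members were called in either direction, against 1.02% of genes called higher and 0.0553% lower; the differences of the 9 members tested ran from 0.83-fold for Timp2 to 1.51-fold for Mmp8 over all libraries. Single libraries moved 2 of them: the log2 difference of Mmp9, at 0.06 with all libraries, was -0.90 without library 6 and 1.14 without library 8, and that of Timp1 went from 0.44 to -0.30 without library 6.

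Of the 4 splits, Inhba gave the largest difference for Mmp12 and Mmp13. Because Inhba had been grouped with Mmp12 in these data before, this rank adds no support. A further limit is that C1qa was cut at its median and the other genes at 2 UMIs against 0. The 579 Inhba-high macrophages held 1188 CPM of Mmp12 (1166 to 1211), with libraries from 736 to 1638, and the 2627 macrophages with 0 Inhba UMIs held 257 CPM (251 to 262), with libraries from 158 to 467. The 2 sets of libraries did not overlap, and the difference was 4.63-fold (4.51 to 4.76). For Mmp13 the levels were 401 CPM (329 to 452) and 131 CPM (98.3 to 261), again without overlap, 3.07-fold. Mmp8 was 6.99-fold higher, at 35.4 against 5.06 CPM and in 6 of 6 libraries, with ranges that overlapped. These 3 members were called, although Mmp13 was no longer called among macrophages with at least 6 UMIs of Csf1r and Adgre1 (log2 difference of 1.76, against 1.62 in the whole gate) or with splits on thinned barcodes (1.27). Of the 9038 genes tested, 1.39% were called higher and 0.564% lower. Mmp9 was 4.38-fold higher in the sums, at 25.6 against 5.84 CPM, but lower in library 3 and so not called, and without library 8 its log2 difference was 1.19 against 2.13. Timp1 was 2.06-fold higher in the sums and in 5 of 6 libraries.

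Timp2 went the opposite way in every library, at 205 CPM (132 to 245) on the Inhba-high side against 348 (198 to 515), or 0.589-fold, with 0 members called lower. Mmp14 and Adam8 were higher in 6 of 6 libraries, by 1.29-fold and 1.46-fold. Depth was similar on both sides, with medians of 12057 and 13107 UMIs. At 3000 UMIs, a Mmp12 UMI was found in 34.1% of Inhba-high macrophages (30.2 to 38.1) and 13.1% of the others (11.8 to 14.4). Neutrophil markers summed to 218 CPM on the Inhba-high side (libraries 85.8 to 309) and 108 on the other (82.0 to 202), with 1 of 5 tested called higher, and early monocyte markers to 1999 (1147 to 3031) and 1281 (843 to 2305), with 2 of 7. Their part in the differences of the members was not tested. In macrophages with 0 UMIs of S100a9 and Flt3, a restriction chosen after seeing the data, the log2 differences were 2.23 for Mmp12, 1.54 for Mmp13 and 3.15 for Mmp8, against 2.21, 1.62 and 2.80 in all macrophages.

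The Inhba contrast was present on both sides of the C1qa split, also a comparison chosen after seeing the data. Among C1qa-low macrophages, Mmp12 stood at 1413 CPM with Inhba and 340 without, higher in 6 of 6 libraries, and among C1qa-high ones at 761 and 212, higher in the 3 libraries that could be compared. Mmp13 stood at 451 and 166 CPM in the first and at 305 and 112 in the second. Of all genes tested, 0.792% were called higher with Inhba among C1qa-low macrophages and 0.943% among C1qa-high ones. Among C1qa-low macrophages, 1 of 8 early monocyte markers was called higher with Inhba and 2 of 7 dendritic markers lower. Among C1qa-high ones, 2 of 7 early monocyte and 1 of 5 neutrophil markers were called higher. Their part in the differences of Mmp12 and Mmp13 was not tested. Library 6 had the lowest Mmp12 of all libraries in C1qa-low Inhba-high macrophages, at 263 CPM, where the other five held 1290 CPM or more. In C1qa-high Inhba-high macrophages the same library had the highest, at 1403 CPM.

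**Figure D2:**
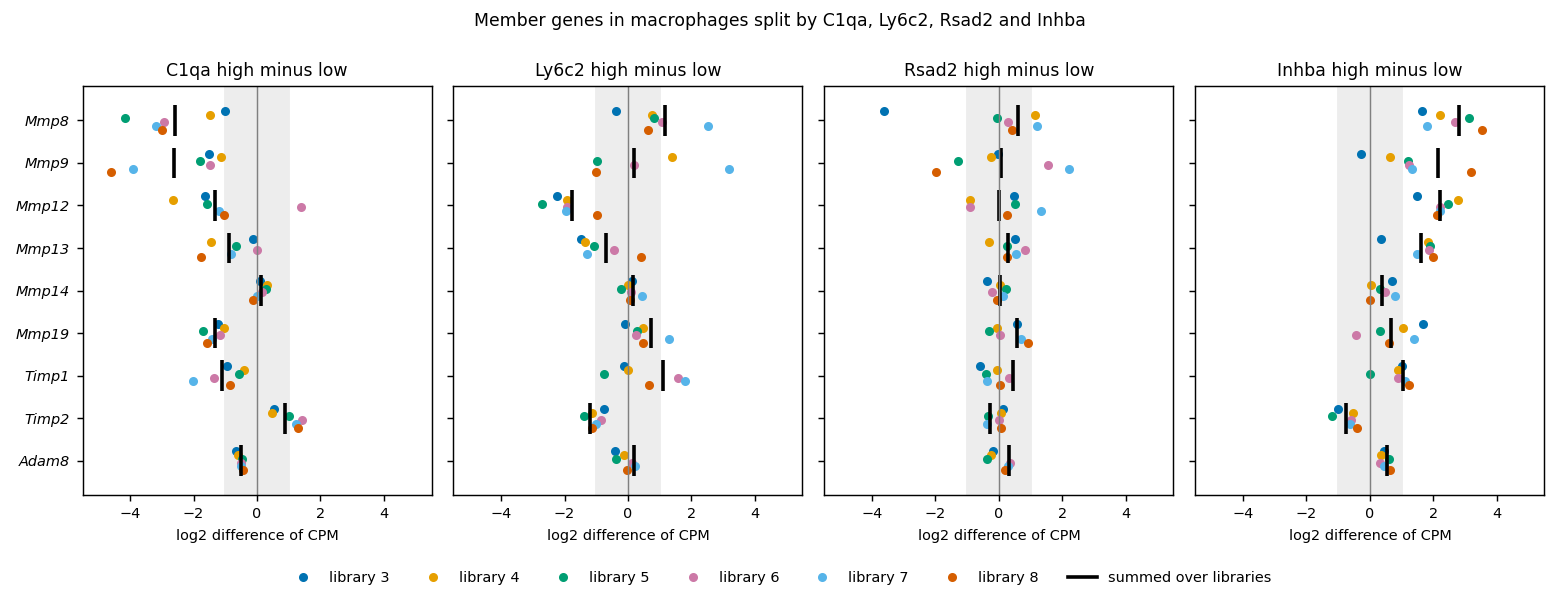
Log2 difference of CPM between the high and the low side of 4 splits of the macrophage gate, for the 9 members tested, with 1 point for each library with UMIs on both sides and a bar at the difference of the sums. The grey band covers changes under 2-fold. In the Inhba panel all 6 libraries lie above 0 for Mmp8, Mmp12 and Mmp13 and below 0 for Timp2, and in the C1qa panel library 6 is the only one above 0 for Mmp12.

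Mmp13 UMIs were found more often in barcodes with a Mmp12 UMI. At 3000 UMIs, 242 of 595 macrophages with a Mmp12 UMI had a Mmp13 UMI (40.7%, 36.7 to 44.7), against 277 of 2846 macrophages without one (9.73%). The share was higher with Mmp12 in each of the 6 libraries, from 34.6% to 51.1% against 7.14% to 14.1%. Within Inhba-high macrophages it was 46.2% against 16.8%, and within those without Inhba 36.4% against 8.62%. It was 44.0% against 10.3% in the neutrophil gate and 42.7% against 6.80% in early monocytes, and 2.69% of the lymphocyte barcodes had a Mmp13 UMI at the same depth (1.44 to 4.56), and 4.31% at full depth. For Mmp12 and Mmp14 no such difference was seen, since 27.4% of macrophages with a Mmp12 UMI and 25.5% of those without one had Mmp14. Timp2 was found in 46.4% and 45.4% of the same 2 sets.

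The balance of proteases and inhibitors was taken as the UMIs of Mmp8, Mmp9, Mmp12, Mmp13, Mmp14 and Mmp19 over those of Timp1, Timp2 and Timp3. Each UMI is 1 transcript counted at its 3′ end, so no length enters, and the ratio says nothing of active protein. With barcodes that met several gates included, the ratio of the sums was 2.07 (2.04 to 2.11) in macrophages with libraries from 1.13 to 2.78, 2.38 in the neutrophil gate (0.527 to 3.07), 2.62 in early monocytes (1.65 to 6.04) and 2.29 in dendritic cells (0.318 to 14.1). Without library 3 the dendritic ratio was 1.31 and without library 5 it was 4.88. The lymphocyte barcodes had a ratio of 1.98 (1.70 to 2.30), with libraries from 0.657 to 3.22, although at 97.5 CPM of the proteases and 49.3 of the inhibitors. All of these ranges overlapped, and the neutrophil gate exceeded macrophages in 3 of 6 libraries and early monocytes did so in 4. Library 5 had the lowest ratio in the neutrophil, macrophage and dendritic gates. The 121 neutrophil-gate barcodes with 0 to 2 Csf1r and Adgre1 UMIs had 5.76 (5.03 to 6.62) with libraries of 2.56, 5.33 and 7.47, against 2.18 in the other 571, a difference that held in each of these 3 libraries. Barcodes that met 1 gate alone had a ratio of 6.13 for neutrophils and 5.13 for early monocytes. The neutrophil gate at 20 or more UMIs of S100a9 with 0 to 2 Csf1r and Adgre1 UMIs had 6.59. These sets leave out barcodes with 3 or more Csf1r and Adgre1 UMIs. Within the neutrophil gate, Timp2 stood at 132 CPM under that cut and 301 in the other barcodes. Only 2 libraries for single-gate neutrophils and 1 for the stricter gate had at least 20 barcodes on both sides against macrophages. Of the protease UMIs, Mmp8 gave 10.3% in early monocytes and 1.36% in macrophages, and Mmp19 gave 14.1% and 5.04%. Timp1 gave 39.5% of the inhibitor UMIs in the first and 15.99% in the second.

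**Figure D3:**
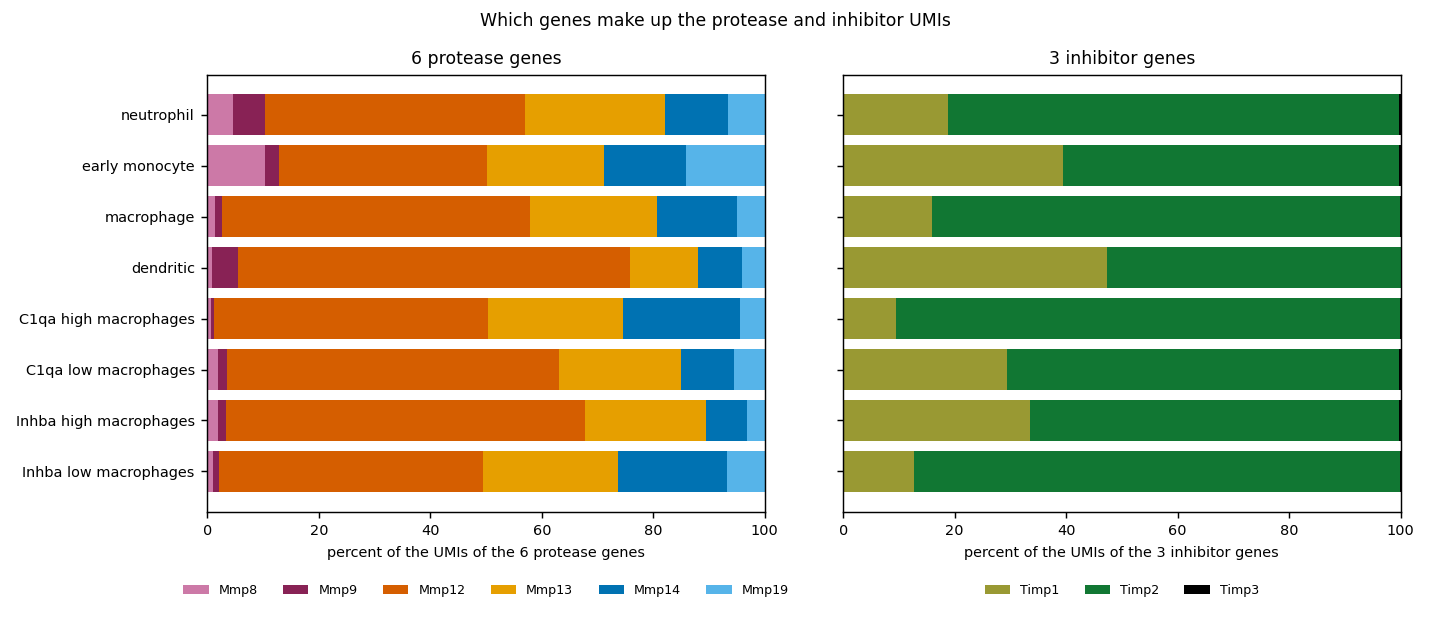
Share of each gene in the UMIs of the 6 protease genes (left) and of the 3 inhibitor genes (right), in percent, for the 4 gates and for macrophages split by C1qa and Inhba. Mmp12 gives 64.4% of protease UMIs in Inhba-high macrophages and 37.3% in early monocytes, and Timp2 gives 90.4% of inhibitor UMIs in C1qa-high macrophages.

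Of the 4 macrophage splits, the ratio differed most by Inhba. Inhba had been grouped with Mmp12 in these data before, and Mmp12 gave 64.4% of protease UMIs in Inhba-high macrophages. This rank therefore partly restates that choice. A further limit is that C1qa was cut at its median and the other genes at 2 UMIs against 0. It was 5.95 (5.72 to 6.198) in Inhba-high macrophages, with libraries of 7.19, 7.55, 6.25, 4.13, 5.38 and 6.25 in libraries 3 to 8. In macrophages without Inhba UMIs it was 1.35 (1.33 to 1.38), with libraries of 2.10, 1.36, 0.793, 1.54, 1.36 and 1.58. The 2 sets did not overlap. With Mmp12 left out of the proteases the ratio was 2.12 (libraries 1.87 to 2.37) against 0.711 (0.427 to 1.04), again without overlap. Mmp13, found more often in barcodes with a Mmp12 UMI, stayed in this sum. C1qa-low macrophages had 3.74 (libraries 1.90 to 5.76) and C1qa-high ones 1.27 (0.621 to 2.29), and library 6 alone had the higher ratio on the C1qa-high side. Across the 4 combinations the ratio was 1.05 with high C1qa and no Inhba, 2.18 with low C1qa and no Inhba, 3.34 with both and 7.80 (7.41 to 8.22) with low C1qa and Inhba. For Ly6c2 the ratio of the sums was 1.89 on the high side and 2.15 at 0, and it was lower on the high side in 5 of 6 libraries, while library 8 went the opposite way, at 3.22 against 2.26. For Rsad2 it was 2.35 on the high side and 1.96 at 0, and higher on the high side in 4 of 6 libraries.

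**Figure D4:**
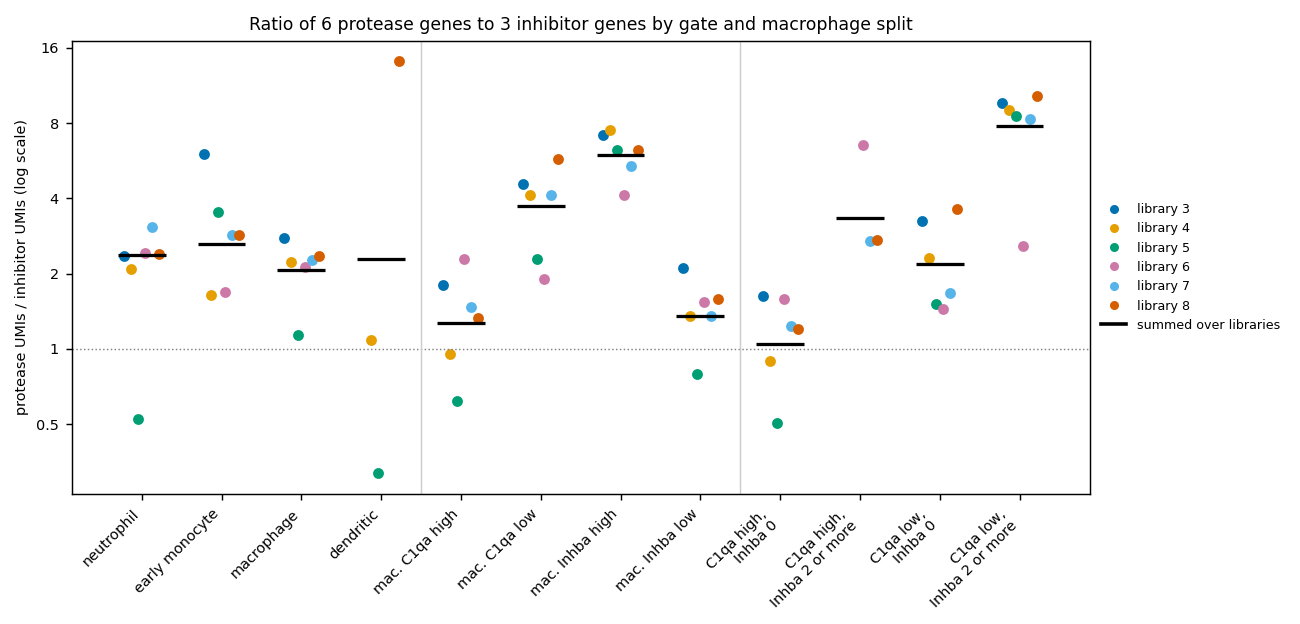
Ratio of the UMIs of 6 protease genes to those of 3 inhibitor genes on a log axis, for the gates (left), the sides of the macrophage splits (middle) and the 4 combinations of C1qa and Inhba (right), with 1 point for each library with at least 20 barcodes and a bar for the sum. The dotted line marks 1. Inhba-high macrophages lie between 4.13 and 7.55 in all 6 libraries, above every library of the macrophages without Inhba UMIs.

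Other genes of matrix breakdown were counted by list. Of 17 further Mmp genes, 12 were in the matrix and 11 of these stayed under 5 CPM in every gate. The exception was Mmp25, a membrane-anchored protease of leukocytes, which stood at 138 CPM in dendritic cells against 24.6 in macrophages and was called higher in the 3 libraries compared. In Inhba-high macrophages, 2 of 8 tested genes among other protease inhibitors were called higher, beside 1.39% of all genes, with a median log2 difference of 0.51 over the list against -0.12 over all genes: Serpinb2, the plasminogen activator inhibitor of monocytes, at 28.9 against 1.74 CPM, and Slpi, an inhibitor of neutrophil elastase, at 336 against 46.1 CPM. Of 7 tested genes of plasminogen activation and clotting proteases, 3 were called higher, beside the same 1.39%, among them F10 at 201 against 35.2 CPM and F7 at 26.8 against 8.67 CPM, which encode coagulation factors, with a median of 0.38. Serpinb2, Slpi and F10 were also called higher in early monocytes than in macrophages, at 40.3, 379 and 264 CPM, and early monocyte markers were higher on the Inhba-high side, as given above. Of 11 cathepsins and of 5 other Adam and Adamts genes tested, 0 were called in either direction in this split. Serpinb2, F10 and Slpi were also the genes of these lists with the largest differences in the C1qa split, lower on the C1qa-high side at 1.94 against 14.8, 18.0 against 136 and 27.9 against 207 CPM. In dendritic cells, 9 of 11 cathepsins were called lower than in macrophages and 1 higher, beside 13.8% and 7.26% of all genes. Their median log2 difference was -1.97 against -0.05 over all genes. Of 8 other protease inhibitors tested there, 3 were called higher and 3 lower, with a median of 0.74. The whole list of 15 such inhibitors summed to 13118 CPM in dendritic cells (libraries 9067 to 16152) and 3162 in macrophages (2689 to 3568).

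Likeness to other genes was read as Spearman's rho of log2(CPM + 1) over 21 sums of a gate in a library, among 9121 genes at a mean of 5 CPM or more. Mmp19 was most like Flt1 (0.94), Ddx58 (0.91) and Parp12 (0.89), Timp2 most like Etv1 (0.96), Scamp5 (0.95) and Tgfbr2 (0.95), and Mmp14 most like Cd68 (0.92), Ldha (0.90) and Fam20c (0.88). Mmp8 was most like Clec4e (0.91), Tpd52 (0.91) and Mcl1 (0.91), Adam8 most like Ifit1 (0.86), P4hb (0.84) and Plin2 (0.84), and Mmp12 most like Mrpl23 (0.85), Angpt2 (0.84) and Atad3a (0.84). For Mmp9, Mmp13 and Timp1 the highest values were lower, at 0.76 for D230025D16Rik, 0.78 for Rfng and 0.77 for Msx3. Among the members, Mmp12 and Mmp13 were the most alike pair at 0.72 and Mmp12 and Timp1 the least alike at -0.21. The sums of a library share its depth and preparation, and these values describe the 21 sums only.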

How the data were processed

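CD45-positive tumor cells were profiled with a 3′ droplet kit, and the counts the authors deposited are UMIs per gene and barcode, not normalized, with all tumors in 1 matrix. The submitters' processing notes list Cell Ranger (given as 1.2), Seurat 3.1.5, R 4.0.1 and the build mm10, and the filter on barcodes is not given in the sources used here. Groups were taken from the sample labels, but the matrix names no sample, so neither a treatment comparison nor a test was run, and treatments were not inferred from expression. Counts were summed over gates and libraries and given per 1000000 UMIs (CPM). Total counts per library ranged from 11492757 to 33902084. Intervals are exact Poisson for levels, exact Clopper-Pearson binomial for shares and conditional binomial for ratios, all at 95% and for counting error only. Barcodes that met several gates were put in the first of neutrophil, early monocyte, macrophage and dendritic. Shares were compared after thinning each barcode to 3000 UMIs. No doublet caller was run, and 1597 barcodes with at least 3 Csf1r and Adgre1 UMIs that also held Cd3e or Ncr1 were kept out of the gates. The rule for calls was tested on simulated data, but no outcome of this is given here and it adds no support to the calls.

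All 10 members were to be described, other genes of matrix breakdown by counts and at most the 4 largest differences in a comparison, and the 3 genes most like each member at 20 CPM or more in some gate. The members, the lists and the genes of the macrophage splits were chosen with earlier results of these data known. Gene positions came from GENCODE M21 and promoters from RefSeq. Alternatives were single-gate barcodes only, gates with overlaps kept, other thresholds for 3 gates, thinning, equal weight for libraries, removal of barcodes above the 95th percentile of UMIs, other ways to split macrophages, and each library left out in turn. Analyses used numpy 2.4.6, pandas 2.3.3 and scipy 1.17.1.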

Additional observations from a re-analysis of the deposited data

Results flagged for a closer look

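Of 30 sets of 6 libraries, each a member or the ratio in 1 gate, 8 had a library set apart. Its gap to its nearest neighbour was large for the range of the set, which chance gives in about 1 in 20 for a single set. The 30 sets share the same 6 libraries and are not independent, so their count cannot be set against that rate. Library 6 was set apart in 5 of them, always as the highest: Mmp9 in the neutrophil gate at 89.2 CPM (others 27.8 to 46.2), Mmp19 in early monocytes at 143 CPM (others 58.6 to 89.0) and in macrophages at 81.2 CPM (others 26.5 to 45.5), and Timp1 in the neutrophil gate at 139 CPM (others 37.6 to 65.7) and in macrophages at 150.0 CPM (others 35.6 to 69.4). Library 3 was set apart in 2, for Mmp9 in early monocytes at 92.2 CPM (others 0.968 to 26.5) and Mmp13 in macrophages at 278 CPM (others 154 to 188). Library 5 was set apart by its low Mmp14 in macrophages, at 78.0 CPM (others 111 to 126). The treatment of these libraries is unknown and its part in the values cannot be told apart from that of the library.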

How the results depend on the processing

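No paired analysis was possible because the columns of the matrix carry no replicate number or treatment by which treated and control tumors could be paired. Sets of cells were compared within each library that had at least 20 barcodes on both sides, at least 3 of the 6, which is part of the rule for calls. The alternatives planned for the treatment comparison were not run, because the matrix names no treatment. Among members compared between gates or in the 4 splits, no called difference changed direction under any alternative run. The calls of Mmp8 in early monocytes and of Mmp19 in the C1qa split held in all of these alternatives. So did those of Mmp12 in the Ly6c2 split and of Mmp8 and Mmp12 in the Inhba split. Equal weight for libraries changed levels and differences but left the calls on the sums, so no call could be lost under it. With single-gate barcodes only, the neutrophil gate held 82.6 CPM of Mmp9, 414 of Mmp13 and 517 of Adam8 at a ratio of 6.13, and early monocytes held 132 CPM of Mmp8 at a ratio of 5.13. At 20 or more UMIs of S100a9 with 0 to 2 of Csf1r and Adgre1, the neutrophil gate held 103 CPM of Mmp9 and 529 of Adam8 at a ratio of 6.59. Under both of these, fewer than 3 libraries could be compared for the neutrophil gate, so its calls against macrophages could not be made; the same holds for dendritic cells without library 4, 5 or 8. With overlapping gates kept, the members called became 1 higher in neutrophils, 1 higher and 0 lower in early monocytes, 3 lower in dendritic cells, and 1 higher each for C1qa (Timp2) and Ly6c2 (Mmp8). Timp2 in early monocytes was not called, leaving 0, with the stricter neutrophil gate and with 1 or more UMIs of Vcan and Hp. With 6 or more UMIs of Csf1r and Adgre1, 1 member was called lower for Ly6c2, without Timp2 (-0.98), and Adam8 was not called in dendritic cells (-0.88). After thinning, C1qa had 1 member called higher and 2 lower (without Mmp8 and Timp1), Inhba 1 lower (Timp2), and the ratio of Inhba-high macrophages was 7.47. The upper against the lower quartile of C1qa gave 1 member called higher (Timp2). With each library left out in turn, the members called higher ranged from 0 to 1 for C1qa and for Ly6c2, from 3 to 4 for Inhba and from 1 to 2 for early monocytes. Those called lower ranged from 3 to 6 for C1qa, from 2 to 3 for Ly6c2 and from 1 to 2 for early monocytes. Single libraries decided several calls: on the log2 scale, Mmp8 in the Ly6c2 split (1.33) and Mmp9 in the Inhba split (2.17) were called without library 3, Timp2 in the C1qa split (1.05) without library 4, Mmp12 in early monocytes (-1.28) and Timp1 in the Inhba split (1.18) without library 5, Mmp12 and Mmp13 in the C1qa split without library 6, and Mmp13 in the Ly6c2 split (-1.04) without library 8. The causes of these shifts were not tested. Gates with few barcodes limit the depth, as in dendritic cells, where 3 UMIs make 1.97 CPM.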

Other observations

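The 1597 barcodes with at least 3 Csf1r and Adgre1 UMIs that also held a Cd3e or Ncr1 UMI, 17.3% of all barcodes and 33.0% of all UMIs, belong to none of the gates. They held 30.5% of the Mmp14 UMIs and 40.0% of the Mmp9 UMIs of the matrix. Their levels were 359 CPM of Mmp12, 83.2 of Mmp14 and 277 of Timp2, and their ratio of proteases to inhibitors was 2.11, with libraries from 1.16 to 2.76.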
